A study of Mus musculus with 4 samples.

Results

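Phenelzine was compared with no drug across both stimulation states of CD8+ T cells, as a set of 2 peak lists against 2 peak lists from ATAC-seq, an assay that marks open chromatin through insertion of sequencing adapters by a transposase. The cells came from BALB/c mice, and the title of the series calls them tumour-infiltrating. The unstimulated phenelzine and stimulated phenelzine libraries made up the treated side, and the unstimulated untreated and stimulated untreated libraries the other. Stimulation was with PMA, an activator of protein kinase C, and ionomycin, a calcium ionophore, for 2 h. All 4 libraries of the series were used. With 1 library per condition and no replicates, the libraries of a side differ in stimulation and are not replicates of each other. The sources used here do not give the dose or duration of phenelzine, the tumour, or the number of animals.

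Regions were made by merging peaks of the 4 lists that overlapped by at least 1 bp on chromosomes 1 to 19 and X. For each region, and for each of 21631 protein-coding gene loci (the gene body with 20 kb on either side), the lists of each side with a peak were counted. Of 15237 regions, 659 were held by both lists of one side and neither of the other. These were 374 regions in the phenelzine pair alone (2.45% of all regions) and 285 in the untreated pair alone (1.87%). Of the gene loci, 430 had regions in both lists of one side and neither of the other. They divided into 223 with phenelzine (1.03% of all loci, and 1.77% of the 12572 loci with any region) and 207 without it (0.957% and 1.65%).

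List lengths moved in opposite ways with phenelzine in the 2 states and bear on all counts given here. Peaks used were 7929 and 9322 with phenelzine and 6519 and 10405 without, so the untreated side held the shortest and the longest list. The implied background coverage, which rises with depth, was a pileup of 0.471 and 0.489 with phenelzine and 0.392 and 0.493 without. The unstimulated untreated list was the shortest and had the lowest background, and the part of depth in the calls was not tested. The mean number of peaks was 8626 with phenelzine and 8462 without, with an exact two-sided permutation p of 1 over 2 against 2 lists. This design cannot go below 0.333.

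Phenelzine is an irreversible inhibitor of monoamine oxidases, the mitochondrial enzymes that break down serotonin, noradrenaline and dopamine. It also inhibits LSD1, the flavin-dependent histone demethylase encoded by Kdm1a. LSD1 removes methyl groups from lysine 4 of histone H3 within complexes that hold CoREST proteins and histone deacetylases, and such complexes are known for keeping genes silent. In T cells, LSD1 and monoamine oxidase A have both been studied as restraints on anti-tumour function.

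The promoters below carry the regions that differ between the sides. They come from the RefSeq promoter table for GRCm38.p6 (mm10) and are written 5′ to 3′ on the strand of the gene. Each window runs from 250 bases before to 50 after an annotated start, and capitals mark the bases that lie in the called region. Kdm1a is shown as the gene of the drug's demethylase target. Snrpf, Stx17 and Nkrf had strong promoter regions in the phenelzine pair alone, and Rrp15, Mfap3, Pop4 and Gbp7 had theirs in the untreated pair alone.
Kdm1a promoter (chr4:136602674-136602973, minus strand): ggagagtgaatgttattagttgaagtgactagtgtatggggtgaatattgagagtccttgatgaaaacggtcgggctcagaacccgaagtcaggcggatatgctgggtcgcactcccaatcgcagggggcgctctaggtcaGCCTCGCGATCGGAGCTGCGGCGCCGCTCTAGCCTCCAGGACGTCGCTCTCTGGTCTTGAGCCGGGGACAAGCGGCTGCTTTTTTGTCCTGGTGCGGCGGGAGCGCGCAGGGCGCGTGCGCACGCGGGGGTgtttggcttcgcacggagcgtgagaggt
Snrpf promoter (chr10:93589609-93589908, minus strand): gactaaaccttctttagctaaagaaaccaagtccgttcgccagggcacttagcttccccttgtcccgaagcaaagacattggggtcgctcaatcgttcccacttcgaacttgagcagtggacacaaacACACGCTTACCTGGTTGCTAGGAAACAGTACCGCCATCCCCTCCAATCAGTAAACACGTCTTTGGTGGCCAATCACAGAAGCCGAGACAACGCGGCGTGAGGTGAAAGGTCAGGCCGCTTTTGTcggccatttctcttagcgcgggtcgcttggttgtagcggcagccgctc
Stx17 promoter (chr4:48124669-48124968, plus strand): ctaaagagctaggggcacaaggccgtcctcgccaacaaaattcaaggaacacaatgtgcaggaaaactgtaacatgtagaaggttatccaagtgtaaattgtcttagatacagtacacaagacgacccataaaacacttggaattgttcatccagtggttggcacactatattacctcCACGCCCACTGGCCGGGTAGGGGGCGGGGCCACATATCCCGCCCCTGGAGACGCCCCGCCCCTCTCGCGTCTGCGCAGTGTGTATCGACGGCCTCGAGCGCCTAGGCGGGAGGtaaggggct
Nkrf promoter (chrX:36903416-36903715, minus strand): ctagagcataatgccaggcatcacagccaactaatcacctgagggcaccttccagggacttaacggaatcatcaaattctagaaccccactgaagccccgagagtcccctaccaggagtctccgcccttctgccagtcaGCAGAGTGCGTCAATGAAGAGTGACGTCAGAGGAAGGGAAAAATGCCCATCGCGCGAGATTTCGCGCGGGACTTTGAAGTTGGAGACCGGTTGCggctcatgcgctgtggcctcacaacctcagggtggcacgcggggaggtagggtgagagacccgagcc
Rrp15 promoter (chr1:186749309-186749608, minus strand): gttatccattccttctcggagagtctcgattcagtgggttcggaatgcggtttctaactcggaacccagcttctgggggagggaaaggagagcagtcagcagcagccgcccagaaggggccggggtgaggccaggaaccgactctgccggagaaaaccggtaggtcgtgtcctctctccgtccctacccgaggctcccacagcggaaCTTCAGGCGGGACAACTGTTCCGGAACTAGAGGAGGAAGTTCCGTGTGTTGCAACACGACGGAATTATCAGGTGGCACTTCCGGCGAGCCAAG
Mfap3 promoter (chr11:57518415-57518714, plus strand): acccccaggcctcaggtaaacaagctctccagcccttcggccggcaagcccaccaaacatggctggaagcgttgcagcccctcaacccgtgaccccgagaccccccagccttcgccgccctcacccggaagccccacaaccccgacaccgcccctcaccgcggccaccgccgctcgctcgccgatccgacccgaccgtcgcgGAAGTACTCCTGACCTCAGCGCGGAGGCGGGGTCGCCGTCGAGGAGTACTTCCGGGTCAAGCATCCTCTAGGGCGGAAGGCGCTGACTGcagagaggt
Pop4 promoter (chr7:38271299-38271598, minus strand): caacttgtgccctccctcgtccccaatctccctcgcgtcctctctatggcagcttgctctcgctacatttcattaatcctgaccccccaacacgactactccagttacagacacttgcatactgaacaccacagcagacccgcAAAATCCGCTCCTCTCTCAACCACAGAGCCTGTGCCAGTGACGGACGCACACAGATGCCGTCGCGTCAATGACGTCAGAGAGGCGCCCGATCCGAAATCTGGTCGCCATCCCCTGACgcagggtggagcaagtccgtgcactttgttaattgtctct
Gbp7 promoter (chr3:142530086-142530385, plus strand): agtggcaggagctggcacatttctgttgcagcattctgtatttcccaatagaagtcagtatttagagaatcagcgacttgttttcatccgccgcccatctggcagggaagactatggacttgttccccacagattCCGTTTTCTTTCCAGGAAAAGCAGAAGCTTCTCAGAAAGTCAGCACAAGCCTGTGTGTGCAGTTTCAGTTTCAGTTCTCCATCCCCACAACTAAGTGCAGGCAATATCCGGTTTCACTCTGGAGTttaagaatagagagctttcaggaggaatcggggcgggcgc

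Among genes of LSD1 complexes, 3 of 22 had regions in the phenelzine pair alone and 0 in the untreated pair alone, beside 1.03% and 0.957% of all loci. Kdm1a had 1 region in each phenelzine list and 0 in either untreated list. It lay at the promoter, chr4:136602702-136602832, 44 bp from the start. Its −log10 q, the peak caller's significance within a list, was 1.86 in unstimulated phenelzine and 4.55 in stimulated phenelzine cells. Fold enrichment over local background was 4.34 and 5.97. With only peaks of −log10 q of at least 3 counted, Kdm1a kept its region in 1 list.

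Rcor3, which encodes a CoREST family corepressor, had 1 region in unstimulated phenelzine and 2 in stimulated phenelzine cells. The region in both lists, chr1:192092442-192092724, lay beyond the gene, with −log10 q of 3.39 and 1.46. Sfmbt1, a polycomb-type gene whose product associates with LSD1, had 1 region in each phenelzine list, but these were different regions with −log10 q of 1.48 and 1.78. So Kdm1a was the single member of the 3 with a shared region at its own promoter. The other members were mostly present on both sides, with Rcor1, Kdm1b and Ctbp1 at 1 region in all 4 lists. Over the list, 16, 14, 10 and 15 of the 22 loci held a region in unstimulated phenelzine, stimulated phenelzine, unstimulated untreated and stimulated untreated cells, the order used for 4 values from here on. The unstimulated untreated list, the shortest of all, thus held the fewest.

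Among amine oxidases and other enzymes that phenelzine is known to inhibit, 0 of 13 had regions in the phenelzine pair alone and 2 in the untreated pair alone, beside 1.03% and 0.957% of all loci. Maoa, the gene of monoamine oxidase A, had 1 region in each untreated list and 0 in either phenelzine list. It lay upstream, chrX:16618487-16618624, with its centre 1143 bp from the start, and its −log10 q was 2.01 and 2.73 in unstimulated and stimulated untreated cells. With −log10 q of at least 3 it was held by 0 lists. Loxl1, a lysyl oxidase gene of elastic fibre assembly, also had 1 region in each untreated list, at different places, with −log10 q of 3.0 and 1.38. Maob had 0 regions in every list. The amine oxidase genes Aoc2 and Aoc3 had 1, 1, 0 and 1 regions, and Abat, the GABA transaminase gene, had 0, 1, 1 and 0.

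Genes that make, transport or sense monoamines had few regions, with 6 of 23 loci holding any. None had regions in 2 lists of one side and 0 of the other. Ddc, the aromatic amino acid decarboxylase gene, had 1 region in all 4 lists, and Tph1, which starts serotonin synthesis, had 1, 0, 0 and 1. Other histone demethylases also gave 0 of 20 in either direction, and the H3K4 and H3K9 methyltransferases 0 of 24. Most of these were present on both sides, such as Kdm6b, the H3K27 demethylase gene, with 3 regions in every list.

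**Figure D1:**
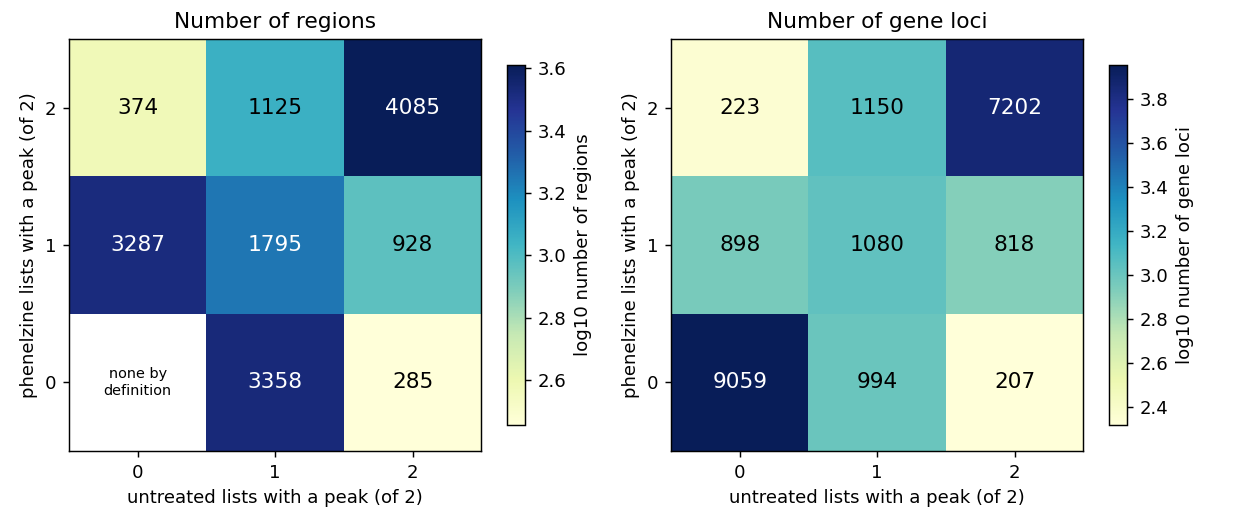
Numbers of regions (left) and protein-coding gene loci (right) by how many phenelzine lists (vertical axis, 0 to 2) and untreated lists (horizontal axis, 0 to 2) hold a peak, with the colour on a log10 scale. Most loci with regions have them in all 4 lists (7202), and the 2 corners with 2 lists against 0 hold 223 and 207 loci.

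Of the T cell gene lists, none had a member in the phenelzine pair alone, beside 1.03% of all loci. Those in the untreated pair alone were Gata3, Tigit and Fosl2, beside 0.957% of all loci. At such shares, lists of 13 to 24 genes would hold few members or none, so these calls show no direction for T cell genes. Gata3, a lineage factor gene of T cells, had 1 region in unstimulated untreated and 2 in stimulated untreated cells. The region in both lists, chr2:9879601-9879752, lay in the gene body, 1076 bp from the nearest annotated start, with −log10 q of 2.39 and 3.81. A further region at a Gata3 promoter was held by the stimulated untreated list with −log10 q of 1.06. Of the 19 effector and lineage factor genes, 1 was in the untreated pair alone. A region in some list was held by 15, beside 12572 of all 21631 loci.

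Tigit, which encodes an inhibitory receptor of exhausted T cells, had 1 region in each untreated list. The one in unstimulated untreated cells overlapped its promoter (−log10 q 3.40), while that in stimulated untreated cells lay in the gene body (1.53). Tigit was thus called by different regions. Fosl2, the gene of the AP-1 subunit Fra-2, had a region 819 bp from its start, chr5:32135471-32135836, with −log10 q of 1.70 and 2.07. Each was the single member called of its list, among 14 inhibitory receptor and exhaustion genes and 22 immediate early and AP-1 genes, beside 0.957% of all loci. Pdcd1, which encodes PD-1, had 1, 2, 1 and 1 regions, and Havcr2, which encodes TIM-3, 1 in every list.

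Several T cell lists had 0 members called in either direction. This held for cytokines and chemokines (18 genes), cytotoxic genes (14), activation receptors (13), the NF-kB and NFAT pathway (23), naive and memory genes (16), T cell receptor and CD8 identity genes (17) and interferon response genes (24). Bach2, a quiescence factor gene, came near with 0, 1, 3 and 4 regions. Hif1a, the hypoxia response factor gene, had 3, 3, 0 and 2. Over all 353 list genes matched, 4 (1.13%) were in the phenelzine pair alone and 6 (1.70%) in the untreated pair alone. Over all loci the shares were 1.03% and 0.957%.

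Marker genes of other cells were few on either side. Cldn4, an epithelial tight junction gene, had a region in the phenelzine pair alone (−log10 q 3.21 and 2.29). Acta2, the smooth muscle actin gene, had one in the untreated pair alone (1.87 and 2.86). Both regions lay outside the gene, with centres 14654 bp from the Cldn4 start and 15076 bp from the Acta2 start. That of Cldn4 lay at a promoter, and its nearest start was that of the neighbour Mettl27, 244 bp away. Epithelial markers summed to 4, 6, 3 and 4 regions and stromal and endothelial markers to 3, 5, 2 and 5. Myeloid markers had 0 of 15 members called, and their summed regions were 14, 11, 8 and 17, so the untreated lists held both the lowest and the highest sum. B cell markers summed to 3, 2, 5 and 4, CD4 and regulatory T cell markers to 4, 5, 3 and 5 and NK markers to 0, 1, 0 and 1. The labelled cell type could not be checked by these counts. Of 17 T cell receptor and CD8 genes 9 held a region, beside 12572 of all 21631 loci. Of the myeloid markers 9 of 15 did so, and of the B cell markers 3 of 8. Cd247 had a region in all 4 lists, while Cd8a and Cd8b1 held 0. Peaks mark accessible DNA and not transcripts, so a locus at 0 says nothing of expression.

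**Figure D2:**
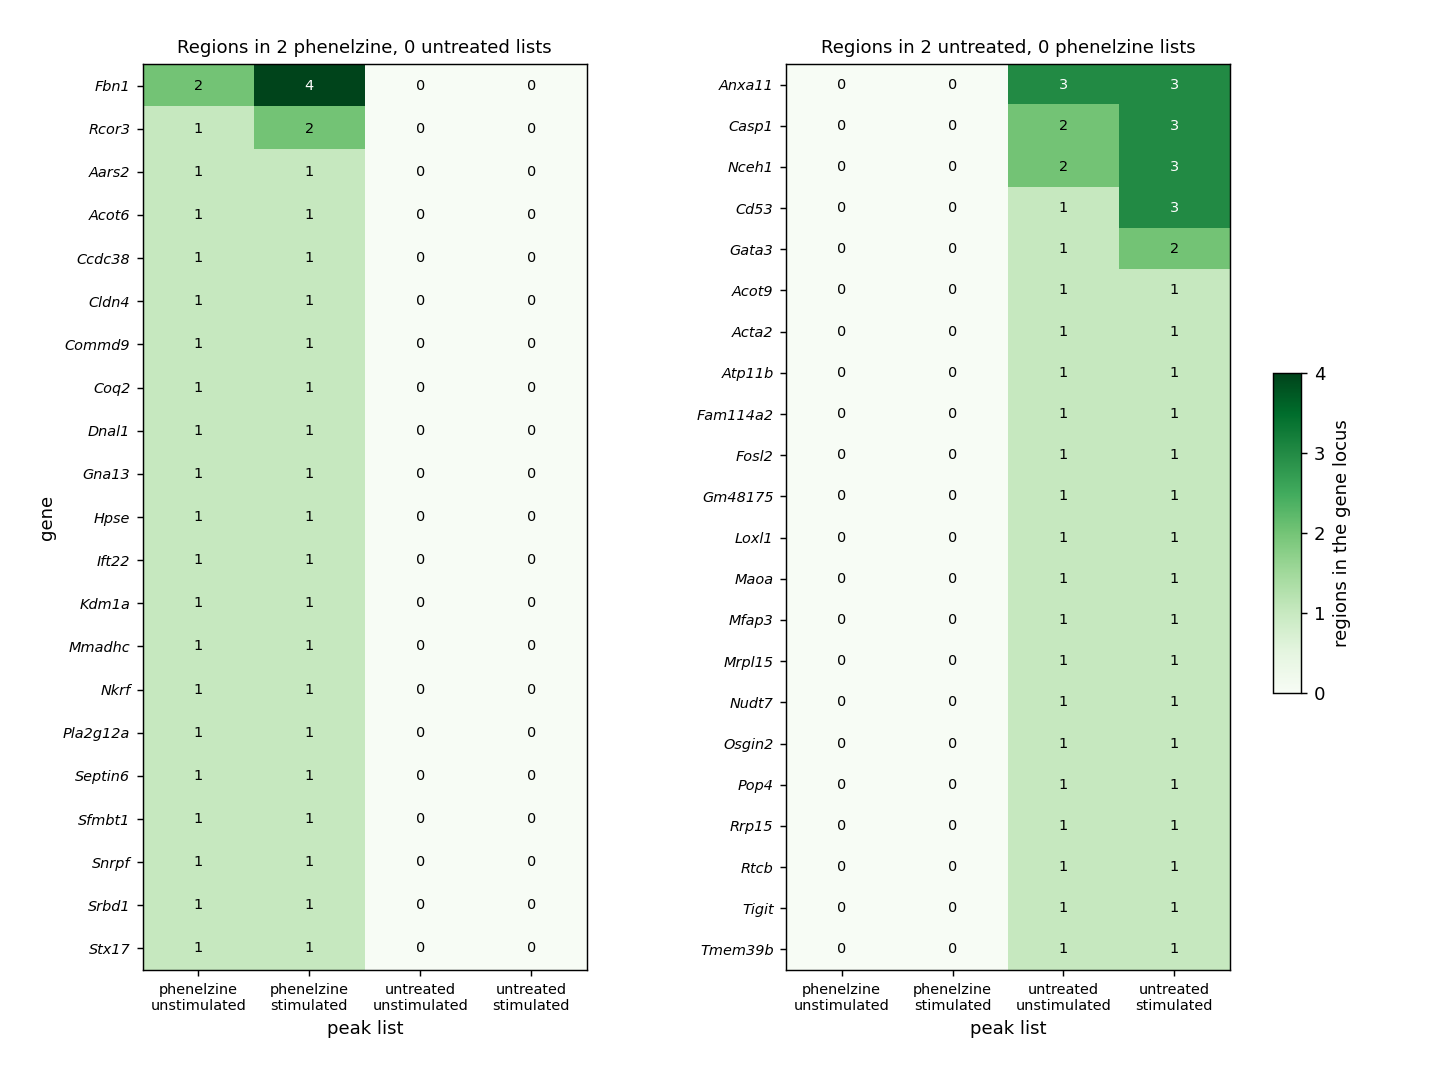
Regions in the gene locus (numbers and colour) in each of the 4 lists for genes called in the phenelzine pair alone (left) and in the untreated pair alone (right); genes with 5 or more regions, those with the strongest shared region and list members are shown. Zeros on one side follow from the choice of genes, and most have 1 region in each list of the other side, with up to 6 at Fbn1 and Anxa11.

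In the phenelzine pair alone, the strongest region at a called locus was the promoter of Snrpf, which encodes a Sm protein of the spliceosome. It lay at chr10:93589657-93589780 and had −log10 q of 5.77 in unstimulated and 8.36 in stimulated phenelzine cells, with fold enrichments of 6.69 and 7.88. The window reaches the neighbouring locus of Ccdc38. Snrpf kept 2 lists against 0 in each of the 8 alternatives run for single genes. Next by the lower −log10 q of the 2 lists came Pla2g12a, a secreted phospholipase gene (4.79 and 4.74), and Aars2, the mitochondrial alanyl-tRNA synthetase gene (4.57 and 5.01). Stx17, which encodes the syntaxin of autophagosomes, followed with 4.2 and 4.76.

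Other promoters of this group belonged to genes of varied function. Nkrf, which encodes an NF-kB repressing factor, had −log10 q of 3.62 and 4.30 at a region that also lies in the locus of Septin6. Gna13, a G protein subunit gene, had 3.51 and 3.84. Coq2, of coenzyme Q synthesis, had 4.16 and 3.41, with Hpse, the heparanase gene, as its neighbour. Dnal1, a dynein light chain gene, had 3.49 and 3.96 and shared its region with Acot6. Commd9 had 3.23 and 5.13, and Ift22, of intraflagellar transport, 4.04 and 3.38. The places at Srbd1 (3.70 and 3.48) and Mmadhc, of cobalamin handling (3.22 and 4.06), completed the 12 strongest. All 12 thus had −log10 q above 3 in both phenelzine lists.

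Some promoters had a region in the phenelzine pair alone inside loci that held other regions in untreated cells. The promoter region of Ccdc181 had −log10 q of 5.85 and 4.29, while its locus held 3, 3, 2 and 2 regions. That of Fuca1, a lysosomal fucosidase gene, had 4.36 and 3.86 and lay at the end of Cnr2, which encodes the cannabinoid receptor of immune cells. At Rfxank, an MHC class II regulator gene, the region at the end of the gene is the promoter of Nr2c2ap (4.92 and 3.86). Rfxank's own promoter was held by all 4 lists, with −log10 q of 7.88, 6.54, 4.66 and 7.58.

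By number of regions, Fbn1, the fibrillin gene, led with 2 in unstimulated and 4 in stimulated phenelzine cells. Its 5 distinct regions lay far from the start, 12914 to 212164 bp away, and only 1 was in both lists, with −log10 q of 1.92 and 1.01. A run of histone genes on chromosome 3, H2ac19, H2ac20, H2ac21, H2bc21 and H3c15, shared 3 regions, with 2 in each phenelzine list. The region at the promoter of H2ac21 was in both lists (1.39 and 1.57). The shared regions at Fbn1 and the histone genes were thus weaker than those of the 12 strongest places.

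In the untreated pair alone, the strongest region at a called locus lay at the gene end of Rtcb, which encodes the tRNA ligase. It was chr10:85957761-85957878, with −log10 q of 4.82 in unstimulated and 8.63 in stimulated untreated cells, and the locus of Gm48175 holds it too. Rrp15, of ribosomal RNA processing, had 3.91 and 5.01 at its promoter. Nudt7, a peroxisomal coenzyme A hydrolase gene, had 5.35 and 3.41. Atp11b, a phospholipid flippase gene, had 3.37 and 4.14, and the shared promoter of Mfap3 and Fam114a2 had 4.41 and 3.35. Acot9, a mitochondrial thioesterase gene, had 3.32 and 3.66, and Pop4, a subunit gene of RNase P, 6.21 and 3.29. Mrpl15, a mitochondrial ribosomal protein gene, had 5.22 and 3.15 and Tmem39b 5.0 and 3.04. Osgin2 had 2.86 and 4.02, so that its value in the unstimulated list lay below 3.

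The promoter of Mfn2, of mitochondrial fusion, was also in the untreated pair alone (5.20 and 3.34), inside a locus with 1, 1, 2 and 2 regions. The remaining gene-end regions named by strength were those of Rrp15, Nudt7, Atp11b, the Mfap3 promoter and Rtcb.

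Genes of innate immune cells were among those with most regions in the untreated pair alone; they were grouped after their values were seen. Casp1, the inflammasome protease gene, had 2 regions in unstimulated and 3 in stimulated untreated cells. One lay 110 bp from its start (−log10 q 2.90 and 3.29), and another at chr9:5308720-5308831 (3.77 and 3.05) overlaps the promoter of its relative Casp4. Casp1 kept 0 lists against 2 with −log10 q of at least 3. Ncf4, an NADPH oxidase subunit gene, had 1 and 3, the shared one in its body with 1.84 and 3.74. Cd53, a leukocyte tetraspanin gene, had 1 and 3, with the shared one at 3.03 and 2.97.

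Anxa11, an annexin gene, had 3 and 3 regions, of which that at the promoter had −log10 q of 2.02 and 4.00. Nceh1, a cholesterol ester hydrolase gene, had 2 and 3. Gbp7, an interferon-inducible GTPase gene, had a promoter region at 2.99 and 2.82 and a further one in stimulated untreated cells. Nos2, Cd300a and Mpeg1, known from macrophages, each had 1 and 2, with no region in both lists. The kinase gene Fes and its neighbour Furin, a proprotein convertase gene, shared a region at 2.39 and 2.46. The myeloid marker list given above had 0 members called.

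Other genes tied at 3 regions in sum in the untreated pair alone had varied roles. Il11ra1, which encodes the interleukin-11 receptor, had a shared region outside the gene (−log10 q 3.40 and 2.83) and 1 at its promoter in stimulated untreated cells (2.29). Rab24, a small GTPase gene, had its promoter in both lists (2.82 and 2.36), and Ampd2, the AMP deaminase gene, a gene-end region (1.86 and 3.64). Cyp1b1, a cytochrome P450 gene, had a shared flanking region at 2.12 and 2.05. Lrrc6, with 4 in sum, had 3 regions in unstimulated and 1 in stimulated untreated cells, with −log10 q between 1.16 and 1.39 and none shared.

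One place stands for many genes. The gamma protocadherin genes, from Pcdhga2 to Pcdhgc5, share exons and thereby the same 2 regions on chromosome 18, so 20 genes called were 1 place. Counted as places joined by shared regions, the 223 genes of the phenelzine pair were 160 places and the 207 of the untreated pair 146. Of the 223 genes, 165 (74.0%) were called by a region present in both lists and 58 by different regions only. Of the 207 genes the numbers were 156 (75.4%) and 51. Most had the least that the rule allows, with 175 of 223 and 147 of 207 genes holding 1 region in each list.

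**Figure D3:**
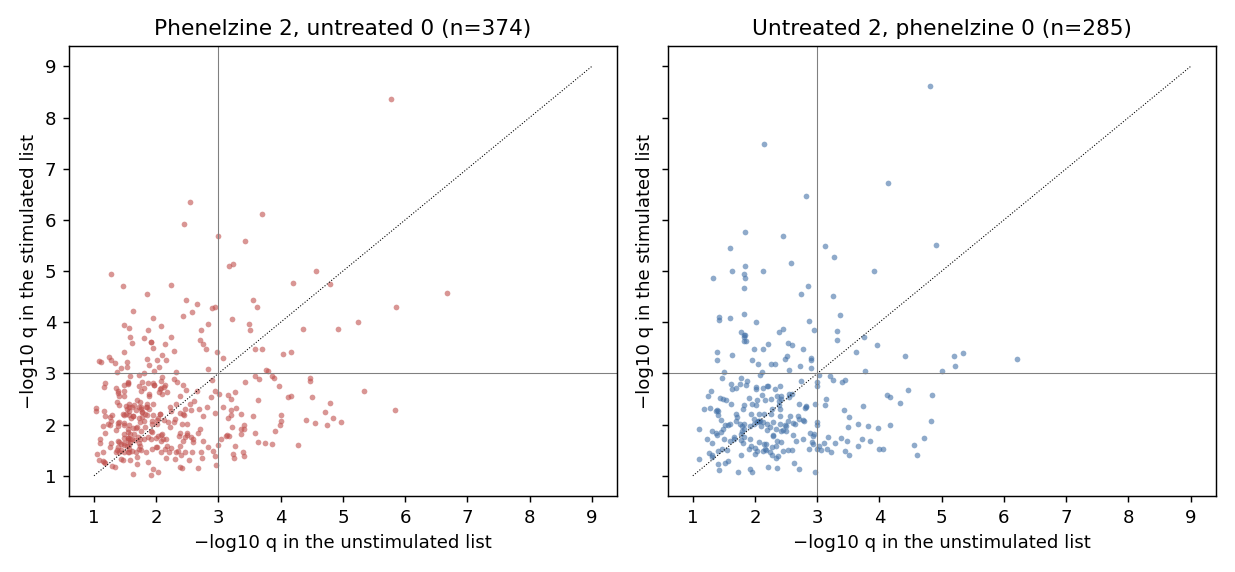
The −log10 q of regions in the phenelzine pair alone (left, n = 374) and in the untreated pair alone (right, n = 285), in the unstimulated list (horizontal) and stimulated list (vertical) of that pair; the grey lines mark 3 and the dotted line equal values. Most points lie near the lower left, and 25 and 20 regions reach 3 in both lists.

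Regions of the 2 lists against 0 were weak peaks of their lists. In unstimulated phenelzine their median −log10 q was 2.04, against 3.61 for regions held by all 4 lists, and it lay at percentile 31.7 of that list. In stimulated phenelzine the values were 2.2, 3.94 and percentile 36.2. In unstimulated untreated they were 2.27, 3.59 and 29.8, and in stimulated untreated 2.21, 4.78 and 31.7. Regions held by a single list were weaker still, with medians between 1.71 and 1.93. Both pairs thus held regions of middling to low strength. Only 25 of 374 regions (6.68%, exact 95% interval 4.37 to 9.71) and 20 of 285 (7.02%, 4.34 to 10.6) reached −log10 q of 3 in both lists. The intervals cover counting error only.

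Few of these regions had a peak of the other side close by. Within 200 bp this was so for 3 of 374 regions of the phenelzine pair and 2 of 285 of the untreated pair. Within 1000 bp it was 32 (8.56%) and 17 (5.96%). So the calls seldom came from peaks that lay side by side without touching.

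The balance between the sides turned with a threshold on strength. Counting peaks with −log10 q of at least 3 alone, 168 regions fell to the phenelzine pair and 275 to the untreated pair, and 193 and 357 gene loci. Of the genes called with all peaks, 19 of 223 and 13 of 207 were called again. With each list kept to its 6519 strongest peaks the counts were 330 and 260 regions and 262 and 238 loci, with 112 and 106 genes called again. The pair with more regions and loci thus changed with the −log10 q threshold of 3 and stayed the phenelzine pair with lists of equal length.

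**Figure D4:**
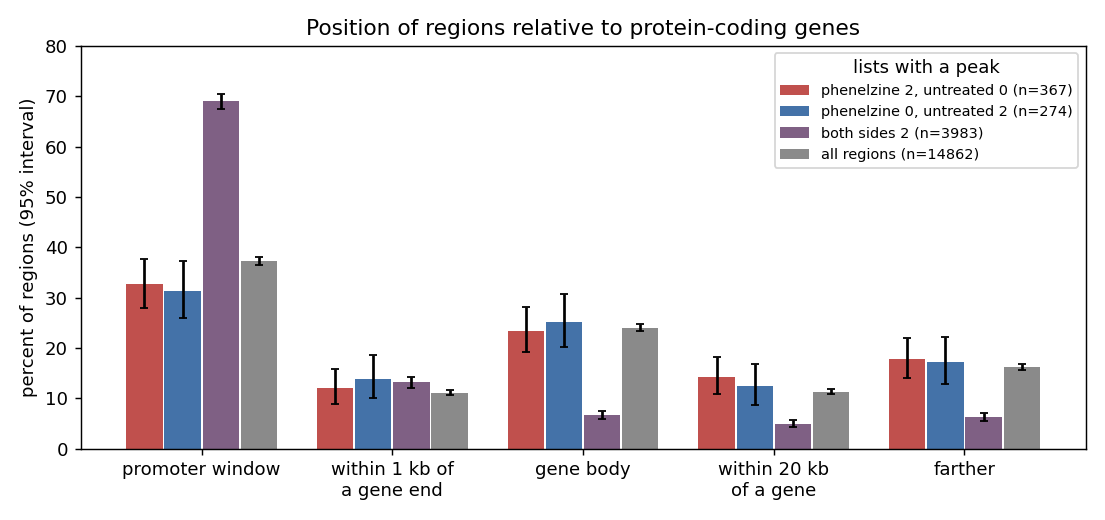
Position of regions relative to protein-coding genes for the phenelzine pair alone, the untreated pair alone, all 4 lists and all regions; bars give the percent of regions and whiskers exact 95% intervals for counting error. Promoter shares are 32.7% and 31.4% in the 2 pairs and 69.0% in regions of all 4 lists.

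In position, the regions of both pairs were alike within their intervals, and each differed from regions held by all 4 lists. Of the phenelzine pair 32.7% (27.9 to 37.8) overlapped a promoter window, and of the untreated pair 31.4% (25.9 to 37.2), against 69.0% (67.6 to 70.5) of regions in all 4 lists and 37.3% of all regions. Gene bodies took 23.4% and 25.2%, and 17.7% and 17.2% lay farther than 20 kb from any protein-coding gene. Median widths were 160 and 158 bp, against 277 bp for regions in all 4 lists. Promoter windows on chromosome 18 were not used here.

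At promoters, 120 regions of the phenelzine pair overlapped windows of 137 genes, and 86 of the untreated pair windows of 87 genes. Short motifs were searched on both strands in the distinct windows, and overlapping matches of different motifs were counted for each. CCGGAAG, a core of ETS factors, was in 27.8% of 144 windows of the phenelzine pair, 26.0% of 100 windows of the untreated pair and 26.9% of windows with regions in all 4 lists. All 21020 windows had it in 11.7%. GGGCGG, the GC box, was in 52.1% (43.6 to 60.5), 68.0% (57.9 to 77.0), 74.9% and 46.6%, in the same order, and CCAAT in 34.7%, 33.0%, 52.8% and 38.5%. GCATGCGC, an NRF1 core, was in 5.56%, 6.0%, 11.9% and 3.54%. TGANTCA, the AP-1 site, was in 2 of 144 (0.169% to 4.93%) and 1 of 100 windows (0.0253% to 5.45%). Windows with regions in all 4 lists had it in 3.72%, within both intervals, and all windows in 7.04%. Promoters of both pairs thus held ETS cores at about the share of promoters with regions in all 4 lists, and CCAAT boxes at a lower one.

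The printed promoters show this mix. Those of Rrp15 and Mfap3 held CCGGAAG and GGGCGG, and that of Stx17 GGGCGG. Those of Pop4 and Nkrf held TGACGTCA, the cyclic AMP response element. It was in 6.94% (3.38 to 12.4) of windows of the phenelzine pair and 4.00% (1.10 to 9.93) of the untreated pair. Windows with regions in all 4 lists had it in 4.76%, within both intervals, and all windows in 2.26%. Snrpf, Kdm1a and Pop4 held CCAAT, and Nkrf also held GGGCGG on the other strand. The Gbp7 promoter held GGGCGG and CCAAT. These Gbp7 matches, CCAAT of Kdm1a and Pop4 and GGGCGG of Rrp15 and Nkrf lay outside the called regions. A match describes letters only.

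**Figure D5:**
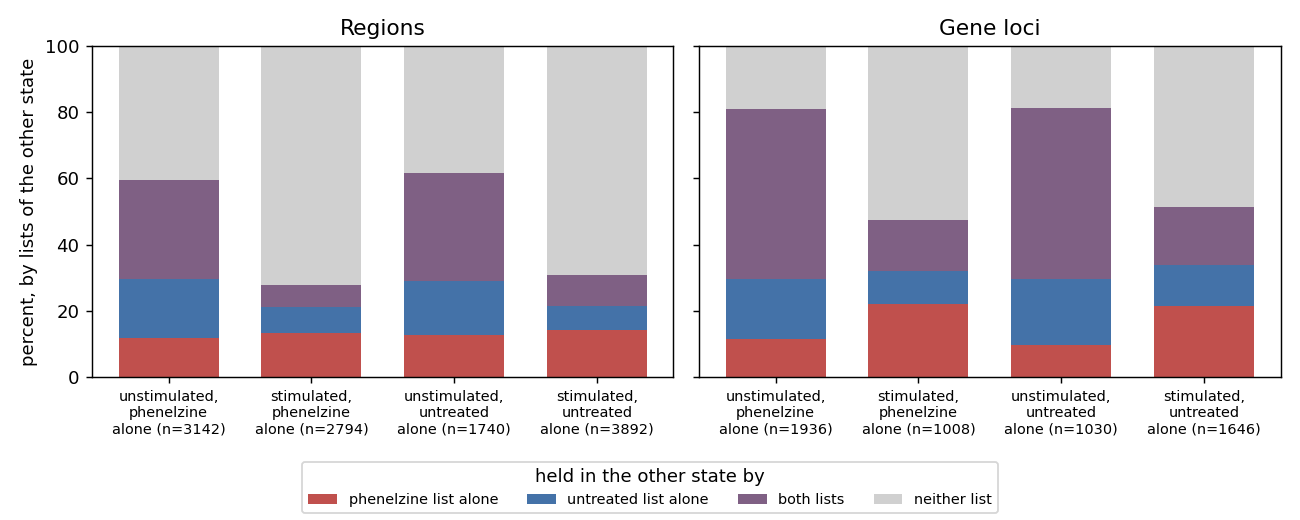
Regions (left) and gene loci (right) held by only the phenelzine or only the untreated list in one stimulation state, divided by the lists that hold them in the other state (stacked percent). The share with the same direction in the other state is 11.9% for the 3142 regions of the unstimulated phenelzine list alone, and 17.7% have the opposite direction.

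Finally it was asked how often a change seen in one stimulation state was met in the other; the 2 contrasts share no library. In unstimulated cells 3142 regions were in the phenelzine list alone. In stimulated cells 374 of these (11.9%, 10.8 to 13.1) were again in the phenelzine list alone, 556 (17.7%, 16.4 to 19.1) in the untreated list alone, 944 (30.0%) in both and 1268 (40.4%) in neither. From this list, the opposite direction was met more often than the same direction. Starting from the 2794 regions of the stimulated phenelzine list alone it was the reverse, with 374 (13.4%) in the same direction and 220 (7.87%) in the opposite one. The 556 were 14.3% of the 3892 of the stimulated untreated list alone. These 2 starting points share the 374 regions and differ in the totals they draw on. In stimulated cells 2794 regions were in the phenelzine list alone and 3892 in the untreated list alone, and in unstimulated cells 3142 and 1740. The part of list length in these shares was not tested.

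Of 1740 regions in the unstimulated untreated list alone, 285 (16.4%, 14.7 to 18.2) were again in the untreated list alone after stimulation and 220 (12.6%, 11.1 to 14.3) in the phenelzine list alone. For gene loci, 1936 were in the unstimulated phenelzine list alone. Of these, 223 (11.5%) kept the direction, 351 (18.1%) turned it and 995 (51.4%) had regions in both stimulated lists. Of 1030 loci in the unstimulated untreated list alone, 207 (20.1%) kept it and 99 (9.61%) turned it. Kdm1a was among the 223 and Maoa among the 207. Split by stimulation in place of drug, 896 of 15237 regions and 565 of 21631 gene loci were in the stimulated pair alone. The unstimulated pair alone had 123 regions and 65 loci. Both stimulated lists (9322 and 10405 peaks) were longer than both unstimulated lists (7929 and 6519). The part of list length in these counts was not tested.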

How the data were processed

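Each of the 4 ATAC-seq libraries had a list of broad peaks called on its own. The tools named, per the submitters' processing notes, were MACS2 for peaks, HOMER, Picard, Bowtie2 2.2.5 and Trimmomatic 0.33, on mm10, with no parameters. In the deposited files the score equals 10 × −log10 q, cut to a whole number, for all but 2 of 10414 peaks of the stimulated untreated list and for every peak of the other lists. The deposited fold enrichment is a ratio over local background within a library, and the deposited p and q columns are −log10 values. These describe peaks within a list only. Peak names carry the tag less120, left unexplained in the labels.

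Peaks on chromosomes 1 to 19 and X were merged at 1 bp overlap with pandas 2.3.3. Genes came from RefSeq GRCm38.p6. Single regions and genes were not tested, with 1 library per condition; totals were compared by an exact permutation test over 2 against 2 lists. Intervals are Clopper-Pearson 95%. Background coverage was solved from each list's most frequent fold and p pair, taking fold as pileup plus 1 over background plus 1. Simulated lists gave 500 of 500 regions their planted pattern. Genes named were, in each direction, those at the 12 strongest shared regions, those with most regions (rank 8 and ties), the 6 strongest gene-end regions and called members of 22 gene lists (356 genes, 353 matched); protocadherins and other ties are given in part, and some genes the rule names are not reported here. The comparison, lists and motifs were chosen with earlier results of these data known.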

Additional observations from a re-analysis of the deposited data

Results flagged for a closer look

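Phenelzine lists differed from untreated lists in opposite directions in unstimulated and stimulated cells for several measures. These differences were not tested, since each condition has 1 library. The number of peaks was higher by 1410 with phenelzine in unstimulated cells and differed by −1083 in stimulated cells. Covered length differed by 282.6 and −308.1 kb, gene loci with a region by 906 and −638, and the share of regions at promoters by −4.33 and 2.06 percentage points. Regions summed over all protein-coding loci differed by 2013 and −1702.

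Summed regions of gene lists turned likewise. Immediate early and AP-1 genes differed by 1 and −12 regions, cytokines and chemokines by 2 and −4, and cytotoxic genes by 2 and −4. Housekeeping genes differed by 4 and −5, myeloid markers by 6 and −6 and all list genes by 25 and −37. The other way round, naive and memory genes differed by −4 and 2, inhibitory receptors and exhaustion genes by −2 and 2, and amine oxidases and related enzymes by −2 and 1.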

How the results depend on the processing

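Of 13 alternatives, merging peaks up to 200 bp apart and leaving out regions of high background called the same 223 and 207 genes. With −log10 q of at least 3, regions of the phenelzine pair fell to 168 and loci of the untreated pair rose to 357, so the difference between the pairs turned to −107 regions and −164 loci, from 89 and 16. Requiring that peaks cover 50% of a region gave 348 loci for the phenelzine pair, a difference of 59 loci, and 7 list members. Lists of equal length gave 8 list members for the phenelzine pair. Gene ends alone gave 118 loci for the untreated pair, a difference of 40, and 2 and 1 list members. The difference in loci was 30 with 5 kb and 56 with 50 kb around genes, and 47 with all genes of the table, which gave 384 and 337 loci.

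Leaving out 1 list asks less of the side that loses it, so counts rise by construction. Regions then ranged from 555 to 2393 for the phenelzine pair and 647 to 2974 for the untreated pair, and loci from 378 to 1218 and 401 to 1007. The differences ranged from −2419 to 1746 regions and from −629 to 817 loci. Both turned without the unstimulated untreated list, and that in loci also without the stimulated phenelzine list (−147). Of 106 named genes, 29 kept their call with −log10 q of at least 3, 83 with lists of equal length, 82 with 50% cover, 78 with 5 kb, 33 with 50 kb and 36 at gene ends. None reversed under these. The 106 include the 20 gamma protocadherin genes and other neighbours that share regions, so they are not independent calls.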

Other observations

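The regions of each pair were spread over all chromosomes. The phenelzine pair alone held from 1.82% of the regions of chromosome 7 to 3.10% of those of the X chromosome. The untreated pair alone held from 0.753% on chromosome 12, with 5 regions, to 2.93% on chromosome 18, with 11. On chromosome 12 the phenelzine pair had 15. A strong region of the phenelzine pair far from protein-coding genes lay at chr12:54405261-54405472, with −log10 q of 6.68 and 4.56, and its nearest start, that of the oxygen sensor gene Egln3, was 201492 bp away.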
